A study of Mus musculus with 24 samples.

Results

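Paneth cells make several secreted proteins besides alpha-defensins, and 7 genes for such products were followed across 24 libraries of sorted mouse intestinal epithelium. They were the lysozymes Lyz1 and Lyz2, the mucosal pentraxins Mptx1 and Mptx2, the lectin Itln1, the metalloproteinase Mmp7 and the serine protease Habp2. The members were chosen by gene symbol, on a list drawn up with the genotype difference in small intestine already known, so that difference is described here without a test. All 7 of the 45513 genes in the count files passed the filter on low counts in each comparison.

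The libraries came from mice with CreERT2 placed downstream of the Atoh1 coding sequence at its own locus and a Rosa26 tdTom reporter. One line carried Atoh1(WT)CreERT2 (WT), and the other Atoh1(9S/T-A)CreERT2 (9S/T-A), in which 9 serine or threonine phosphorylation sites were replaced by alanine. All mice, male and female, 8 to 16 weeks old and of C57BL/6 background, received 3 mg tamoxifen, and live EpCAM+tdTom+ cells were sorted 24 hr later, so every group had a Cre knock-in at Atoh1 and cells were labelled through Atoh1 expression. Small intestine (SI, proximal 15 cm) and colon of each line made 4 groups, with 6 libraries in each, numbered 2 to 7. The labels give sex but do not tie a number to a mouse. The submitters' design text speaks of 6 mice in all, with both tissues from each, which are too few for every group of 6 libraries to hold 6 mice of its own line. Libraries may therefore share a mouse. For expression values of these data, a figure legend of the paper gives n = 6 for each line, without naming the unit there. SDs, SEs and p-values measure the spread between libraries (n counts libraries), which may in part be technical, and p-values may be too small.

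The products act mostly outside the cell. Lysozyme cuts the peptidoglycan wall of bacteria, and mice hold a Paneth cell gene, Lyz1, beside a myeloid gene, Lyz2. Pentraxins are ring-shaped pattern recognition proteins, intelectin 1 binds sugars found on microbes, and matrilysin, the product of Mmp7, activates alpha-defensin precursors in mouse Paneth cells. Habp2 encodes a hyaluronan-binding protease known mainly from plasma. Paneth cells sit at the base of SI crypts beside stem cells and are not a normal cell of the mouse colon.

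Depth was similar in all groups, with 36 to 65.8 M counts per library (M for the prefix mega). Levels are given as CPM, counts per M after TMM scaling over the 24 libraries, and levels of different genes were compared only as RPKM, the same CPM divided by exon length in kilobases. Goblet markers (Muc2, Tff3 and 6 others) summed to between 259000 and 351000 counts per M in SI and between 50800 and 100000 in colon. Alpha-defensin counts summed to between 39100 and 85400 per M in SI and between 51.4 and 186 in colon. The sorted SI cells thus held abundant Paneth cell RNA together with goblet RNA. In such bulk samples, fewer cells of a type and less RNA per cell cannot be told apart.

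Both gene pairs are near copies of each other, and this bears on what their counts can show. Lyz2 (ENSMUSG00000069516, chr10:117277334-117282274) and Lyz1 (ENSMUSG00000069515, chr10:117287796-117292868) lie on the minus strand, 5.52 kb apart. Mptx2 (ENSMUSG00000079180, chr1:173274382-173277777, minus strand) and Mptx1 (ENSMUSG00000026531, chr1:174330518-174332873, plus strand) lie 1.05 Mb apart. All positions are GRCm38. The coding sequences of Lyz1 and Lyz2 differed at 22 of 447 bases (95.1% identical), and those of Mptx1 and Mptx2 at 53 of 660 (92.0% identical). The longest stretch without a difference was longer than the 50-base reads in each pair. It is shown once per pair, since the letters are the same in both genes, and a read from within it fits either gene equally well. With the introns it spans, it runs over chr10:117288637-117291054 in Lyz1, chr10:117278175-117280666 in Lyz2, chr1:174330631-174332296 in Mptx1 and chr1:173274954-173277664 in Mptx2.
Lyz1 and Lyz2, coding bases 276 to 393 (exons 2 to 4): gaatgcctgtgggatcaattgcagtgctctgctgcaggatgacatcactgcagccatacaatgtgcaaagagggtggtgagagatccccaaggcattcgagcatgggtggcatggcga
Mptx1 and Mptx2, coding bases 59 to 167 (exons 1 and 2): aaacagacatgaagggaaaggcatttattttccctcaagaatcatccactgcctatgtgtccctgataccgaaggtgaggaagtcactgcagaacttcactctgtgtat

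The 60 coding bases with the most differences are shown next, because reads from such a stretch do tell the genes apart. Capitals mark the bases that differ within a pair, 9 for the lysozymes and 11 for the pentraxins.
Lyz1, chr10:117292719-117292778: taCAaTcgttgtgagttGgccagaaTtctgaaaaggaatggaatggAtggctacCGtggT
Lyz2, chr10:117282123-117282182: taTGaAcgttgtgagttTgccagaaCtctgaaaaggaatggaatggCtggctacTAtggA
Mptx1, chr1:174332659-174332718: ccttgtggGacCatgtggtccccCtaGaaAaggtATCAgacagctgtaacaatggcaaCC
Mptx2, chr1:173274532-173274591: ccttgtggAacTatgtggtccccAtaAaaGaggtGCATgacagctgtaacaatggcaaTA

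Over the annotated transcripts, 195 of the 1214 windows of 50 bases in Lyz1 (16.1%) also occurred in Lyz2. For Mptx1 the number was 134 of 750 (17.9%), each also in Mptx2. Itln1 shared 11 of 1092 windows with the pseudogene Gm9765, and Mmp7 and Habp2 shared 0. The authors counted a read with several possible positions once, at its primary alignment. If a single gene of a pair were expressed, with reads spread evenly and shared windows divided evenly, the silent copy would hold 0.0873 counts for each Lyz1 count and 0.0981 for each Mptx1 count.

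The counts of Lyz2 followed those of Lyz1 in every library. The Lyz2 to Lyz1 count ratio in SI was 0.0874 to 0.0904 for WT and 0.0859 to 0.0887 for 9S/T-A. In colon it was 0.082 to 0.0966 in WT and 0.0741 to 0.1 in 9S/T-A, with medians of 0.0885 and 0.0875. All 4 medians lay between 0.0872 and 0.0887, beside the 0.0873 above, so Lyz2 counts cannot be told apart from Lyz1 reads placed on Lyz2, and Lyz2 values below are uncertain.
The pentraxins did not keep a fixed ratio. In SI, Mptx2 had 9.22 to 14.9 counts for each Mptx1 count in WT libraries, against 0.385 to 1.39 in 9S/T-A libraries. In colon the ratio was 0.0297 to 0.0351 in WT and 0.0287 to 0.0372 in 9S/T-A, near constant over 12 libraries and below 0.0981. Mptx2 counts in colon are therefore uncertain, and so are the low Mptx1 counts in SI.

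**Figure D1:**
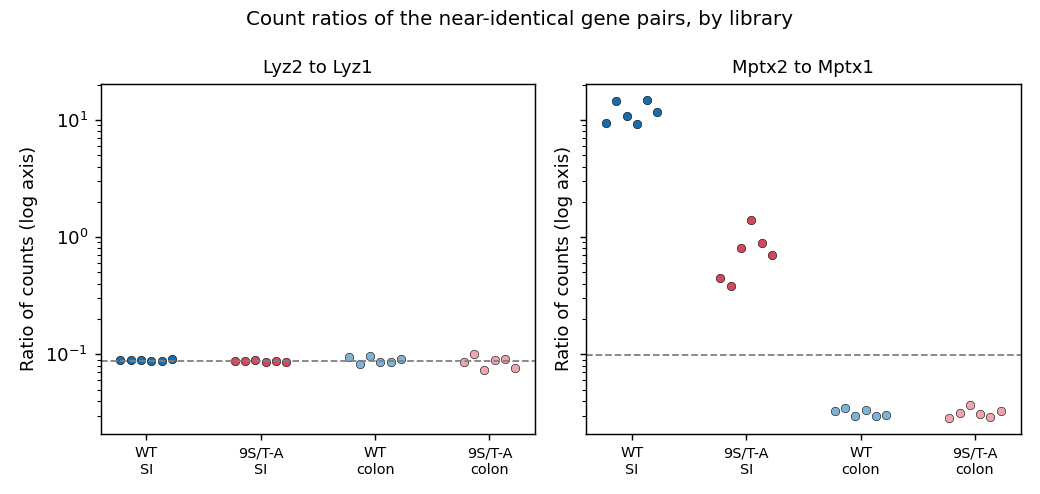
Count ratio of Lyz2 to Lyz1 (left) and of Mptx2 to Mptx1 (right) in each of the 24 libraries, on a log axis, with the 6 replicates of a group side by side. Dashed lines mark the ratio that an even division of shared windows would give, 0.0873 for the lysozymes and 0.0981 for the pentraxins; the lysozyme points lie along it and the pentraxin points move from 9.22 or more in WT SI to 0.0372 or less in colon.

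Lyz1 was the most abundant of the 7 genes in SI and differed little between genotypes there. It stood at 20717 CPM at the lowest, 25737 at the median and 32502 at the highest in WT SI, against 17825, 24061 and 26976 in 9S/T-A SI. That was 1.42 to 2.72% of all counts of an SI library. The ranges overlapped, with 1 of 6 9S/T-A libraries below the lowest WT library, and the log2 fold change was -0.15 (SE 0.143). Lyz2 gave 1872 to 2840 CPM in SI of WT (median 2269) and 1533 to 2393 with 9S/T-A (median 2087), a log2 fold change of -0.17 (SE 0.128).
In colon, Lyz1 was 18.6 to 44.9 CPM in WT (median 24.1) and 30.4 to 60.9 in 9S/T-A (median 40.3). All 6 9S/T-A libraries were above the WT median, and 3 were above every WT library. The log2 fold change of 0.65 (SE 0.245) did not pass edgeR's quasi-likelihood test (adjusted p = 0.417). Lyz2 counts in colon were 1.6 to 4.07 CPM in WT and 2.33 to 5.47 in 9S/T-A, and the log2 difference was 0.59 (SE 0.272, adjusted p = 0.558 in edgeR). Colon against SI, the log2 fold change of Lyz1 was -9.93 in WT (SE 0.313; edgeR adjusted p = 7.01e-13) and -9.13 in 9S/T-A (SE 0.282; adjusted p = 8.14e-13).
Markers of myeloid cells, which express Lyz2, were low in the sorted cells. The 13 genes (Ptprc, Cd68, Csf1r and others) summed to 12.8 to 23.2 counts per M in WT SI, against 8.12 to 17 with 9S/T-A, and 0 and 1 of them had no count in any library of the group. In colon they summed to 51.5 to 61.7 in WT and 47.4 to 53.6 in 9S/T-A, with 1 gene without counts in each. The higher sum in colon came largely from Cd14 (median 5.93 CPM in WT SI and 37.8 in WT colon). Of the 6 markers tested between tissues in WT, 1 was higher in colon and 4 were lower (median log2 fold change -2.15). Of 7 tested in 9S/T-A, 3 were higher and 4 lower (median -1.18). The part of myeloid RNA in the Lyz2 counts was not tested.

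**Figure D2:**
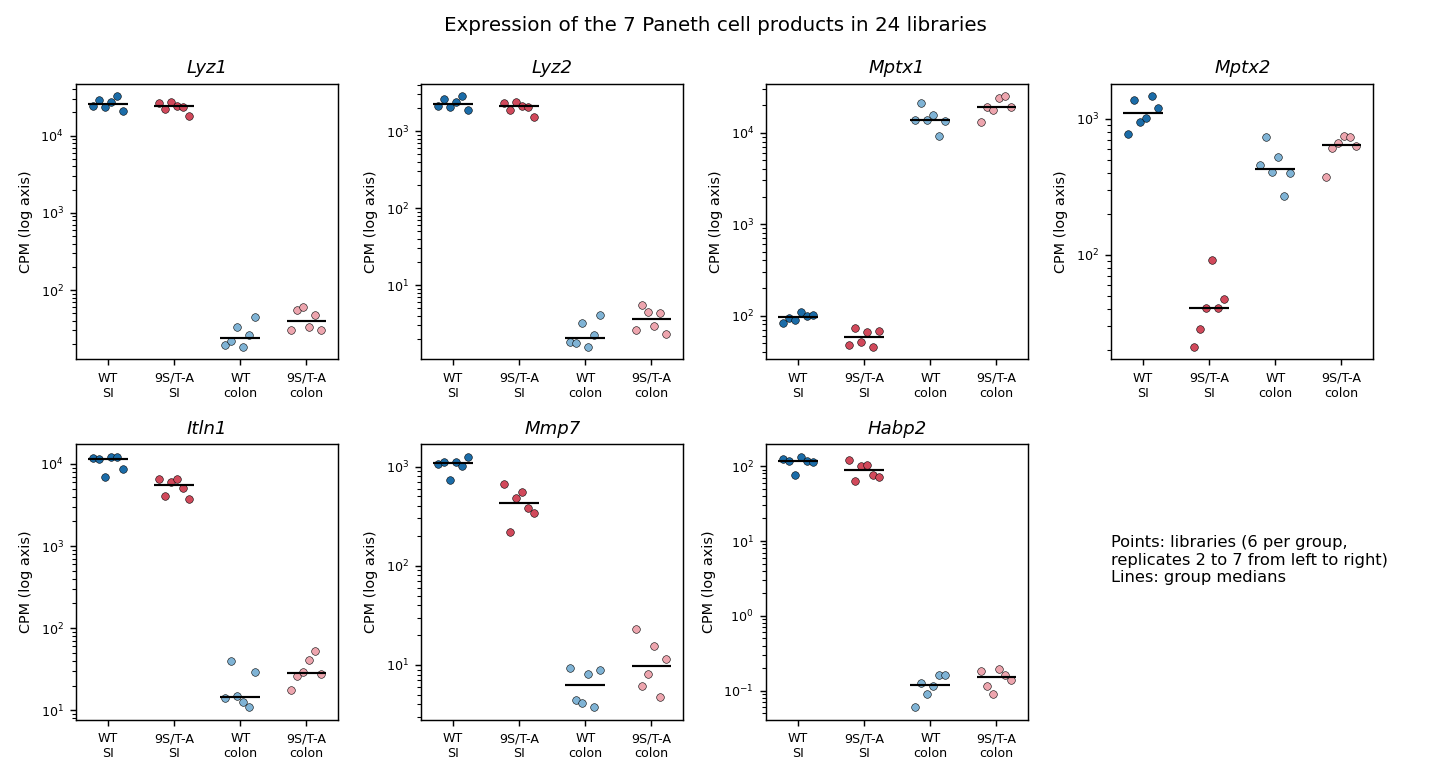
CPM of each gene (log axis, with its own scale in each panel) in the 4 groups, with a point for each library and a line at the group median. Lyz1 overlaps between genotypes in SI at 17825 to 32502 CPM, whereas Mptx2 lies at 770 to 1461 CPM for WT but at 21.3 to 92.4 for 9S/T-A; Mptx1 is the gene that is high in colon.

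Mptx2 showed the largest genotype difference of the 7 genes in SI. The WT SI libraries held 770 CPM at the lowest, 1099 at the median and 1461 at the highest. The 9S/T-A SI libraries held 21.3, 41.0 and 92.4 CPM, every one of them below every WT library. Over all 17953 genes, 1.94% had no overlap between the genotypes in SI. The log2 fold change was -4.64 (SE 0.328), and it was -4.69 (SE 0.338) after subtraction of shared reads as described below. Replicate 5 was the highest of the 9S/T-A libraries.
Mptx1 was also lower in 9S/T-A SI, at a far lower level. Its libraries held 81.8 to 109 CPM in WT (median 96.0) and 45.8 to 73.9 in 9S/T-A (median 58.8), again without overlap, for a log2 fold change of -0.71 (SE 0.122).
Because Mptx2 was the more abundant copy in WT SI, the Mptx1 difference was recomputed after the values had been seen, with shared reads subtracted. From each gene 0.0287 of its partner's counts was removed, the lowest Mptx2 to Mptx1 ratio of any colon library. Mptx1 counts in WT SI, 3200 to 5024 as deposited, then ranged from 2121 to 3697. Those in 9S/T-A SI, 1799 to 3434 as deposited, ranged from 1777 to 3368. The Mptx1 log2 fold change became -0.14 (SE 0.13). The lower Mptx1 count in 9S/T-A SI therefore depends on how reads common to both genes were assigned.

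In colon Mptx1 took the place that Lyz1 had in SI. It stood at 9162, 13680 and 20990 CPM (lowest, median, highest) in WT and at 12984, 19142 and 25090 in 9S/T-A, 1.25 to 3.13% of all counts. The data thus go against the label of a Paneth cell product for Mptx1, since its level in the colon exceeded that in SI by 7.20 on the log2 scale in WT (SE 0.217; edgeR adjusted p = 4.31e-13) and 8.36 in 9S/T-A (SE 0.252; adjusted p = 5.95e-13). Between genotypes in colon the log2 fold change was 0.48 (SE 0.191; edgeR adjusted p = 0.464), with 5 of 6 9S/T-A libraries above the WT median.
Mptx2 counts in colon were 272 to 737 CPM in WT and 373 to 740 in 9S/T-A, a log2 difference of 0.45 (SE 0.208, adjusted p = 0.566 in edgeR). Across tissues, Mptx2 was lower in colon than in SI in WT, with a log2 difference of -1.31 (SE 0.213, edgeR adjusted p = 6.28e-05), and higher in colon than in SI in 9S/T-A, by 3.75 (SE 0.315; adjusted p = 7.03e-08). Both of these rest on the uncertain colon counts. With shared reads subtracted, colon libraries kept 0 to 9960 Mptx2 counts, the 9S/T-A tissue difference became 0.37 (SE 0.818) and the WT one -4.47 (SE 0.576). The rate is itself the lowest colon ratio, so 1 colon library was set to 0 and most Mptx2 counts of the others were removed by construction. These colon values follow from the chosen rate, and with the pair summed the WT difference was 3.57.

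Itln1 (ENSMUSG00000038209, chr1:171518122-171535294, minus strand) was lower in 9S/T-A SI in every library. WT SI libraries held 6832 CPM at the lowest, 11614 at the median and 12157 at the highest. The 9S/T-A SI libraries held 3734, 5579 and 6495 CPM, with no overlap between the groups, beside 1.94% of all genes. The log2 fold change was -0.98 (SE 0.179).
In colon Itln1 was 10.9 to 40.3 CPM in WT (median 14.7) and 17.5 to 53.1 in 9S/T-A (median 28.5). All 6 9S/T-A libraries were above the WT median, but the log2 fold change of 0.69 (SE 0.335) did not pass the edgeR test (adjusted p = 0.588). Colon against SI gave -9.04 in WT (SE 0.416; edgeR adjusted p = 4.32e-11) and -7.39 in 9S/T-A (SE 0.309; adjusted p = 2.36e-11).

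Mmp7 (ENSMUSG00000018623, chr9:7692090-7699585, plus strand) was lower in 9S/T-A SI as well. WT SI libraries held 733, 1088 and 1251 CPM (lowest, median, highest), and 9S/T-A SI libraries 218, 431 and 665. Again there was no overlap, beside 1.94% of all genes. The log2 fold change was -1.25 (SE 0.219).
Colon libraries held 3.75 to 9.29 CPM of Mmp7 in WT (median 6.28) and 4.77 to 23.3 in 9S/T-A (median 9.73). The log2 fold change was 0.86 (SE 0.369; edgeR adjusted p = 0.526). With sex as a covariate it was 0.80 and passed the test (SE 0.159; edgeR adjusted p = 0.0433). Colon against SI gave -7.38 in WT (SE 0.291; edgeR adjusted p = 7.36e-12) and -5.28 in 9S/T-A (SE 0.416; adjusted p = 3.41e-08).
Within each genotype the colon libraries separated by sex, a comparison made after the values were seen. WT females held 8.08 to 9.29 CPM and WT males 3.75 to 4.48, 3 libraries each. The 9S/T-A females held 11.4 to 23.3 CPM and the males 4.77 to 8.08. Over both genotypes Mmp7 was higher in females by 1.27 on the log2 scale (SE 0.161, edgeR adjusted p = 0.00333, genotype in the model), 1 of 50 genes called for sex in colon (0.294% of those tested). The other 6 members did not pass this test in colon, with adjusted p from 0.382 to 0.86. In SI the difference of Mmp7 between sexes was 0.39 (SE 0.197; edgeR adjusted p = 0.696), and the sexes overlapped in both genotypes. Replicates 2, 5 and 7 were female and 3, 4 and 6 male in every group, so sex and anything else that goes with the replicate numbers cannot be told apart.

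**Figure D3:**
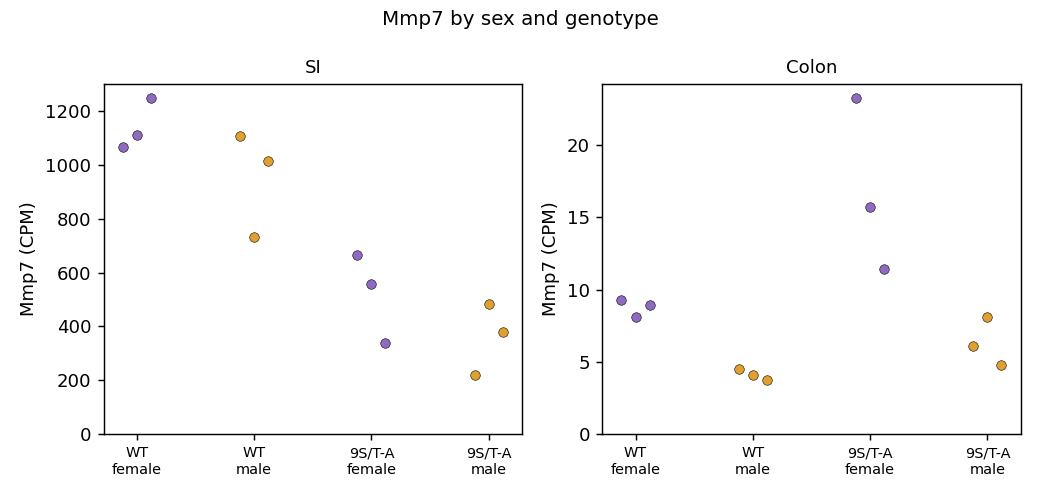
Mmp7 in CPM (linear axis from 0) by genotype and sex in SI (left) and colon (right), with a point for each of the 3 libraries in a class. In colon the females lie above the males within WT (8.08 to 9.29 against 3.75 to 4.48 CPM) and within 9S/T-A (11.4 to 23.3 against 4.77 to 8.08 CPM).

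Habp2 (ENSMUSG00000025075, chr19:56287137-56320822, plus strand) was the least abundant member. SI libraries held 76.1, 118 and 133 CPM in WT (lowest, median, highest) and 63.9, 88.9 and 122 in 9S/T-A. The groups overlapped, with 2 of 6 9S/T-A libraries below every WT library, and the log2 fold change was -0.34 (SE 0.16). In colon Habp2 had 4 to 15 counts per library, and the genotype difference was 0.32 (SE 0.309; edgeR adjusted p = 0.924). Colon against SI gave -9.91 in WT (SE 0.2; edgeR adjusted p = 1.07e-14) and -9.25 in 9S/T-A (SE 0.232; adjusted p = 9.81e-14).

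**Figure D4:**
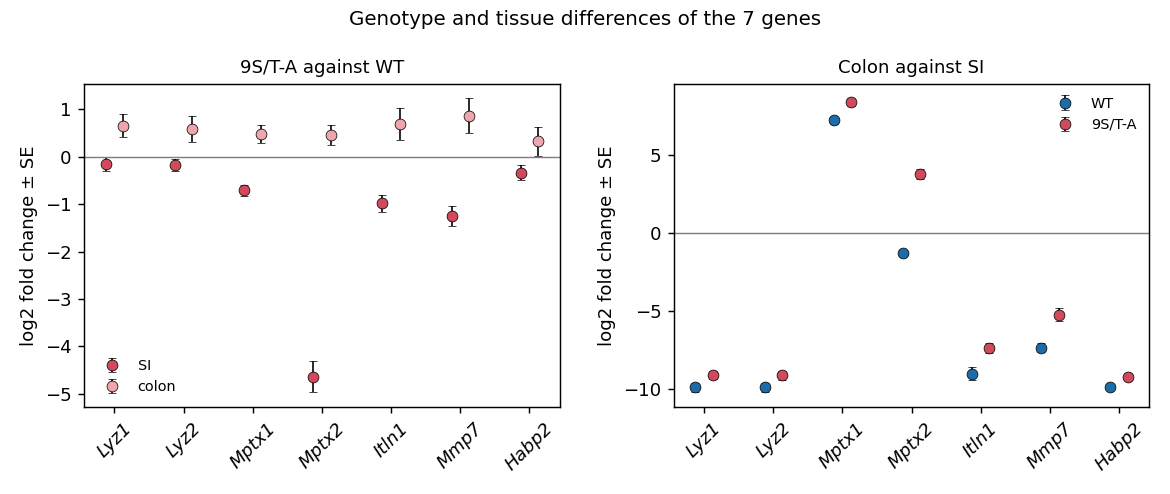
Log2 fold change with SE of each gene for 9S/T-A against WT in SI and colon (left) and for colon against SI in WT and 9S/T-A (right). The SI genotype values lie between -4.64 and -0.15 and the colon ones between 0.32 and 0.86; Mptx1 is positive in both tissue comparisons and Mptx2 is negative in WT and positive in 9S/T-A.

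Set side by side, the genotype differences had opposite signs in the 2 tissues for each of the 7 genes. The SI signs were known when the members were listed, and the share of all genes with opposite signs is not given here. In SI, Lyz1 (-0.15, SE 0.143) and Lyz2 (-0.17, SE 0.128) differed by little more than their SE. In SI, 4 of the 7 (Mptx1, Mptx2, Itln1 and Mmp7) were past the threshold of edgeR's test, beside 1.94% of the 16236 genes tested. The choice of members had this difference in view, so the count is a description and lends no support. It was 3, without Mptx1, when shared reads were subtracted. In colon 0 of 7 passed that threshold, by edgeR and by DESeq2, beside 0.318% of 16997 genes, and 5 of 7 had an unadjusted p under 0.05, beside 8.81% of all genes. These 5 were Lyz1, Lyz2, Mptx1, Mptx2 and Mmp7. Lyz2 and Mptx2 counts in colon may be reads of their partners, so these genes may not count separately, here or among the signs. The fitted difference between the colon and the SI genotype effects was 5.06 (SE 0.395) for Mptx2, 2.1 (SE 0.451) for Mmp7, 1.65 (SE 0.401) for Itln1 and 1.16 (SE 0.248) for Mptx1. It was 0.80 (SE 0.297) for Lyz1, 0.76 (SE 0.298) for Lyz2 and 0.66 (SE 0.372) for Habp2. For this product of genotype and tissue 3 of the 7 (Mptx1, Mptx2 and Mmp7) were past the threshold, beside 0.412% of all genes. Itln1 joined them with the replicate block (1.74, SE 0.376), with DESeq2 (1.64, SE 0.448) and with plain totals (1.74, SE 0.386). The Mptx1 value became 0.60 (SE 0.253) with shared reads subtracted. The product contains the SI difference for every member, so its values and counts are given as a description. Between tissues all 7 passed in both genotypes, beside 63.6% of genes in WT and 60.9% in 9S/T-A.

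Ratios to Lyz1 within a library, which do not depend on the library total, gave the same picture in SI. On the log2 scale (counts plus 1), Mptx2 relative to Lyz1 was -4.56 ± 0.298 (SD, n = 6) for WT and -9.17 ± 0.784 for 9S/T-A. Itln1 relative to Lyz1 was -1.33 ± 0.249 and -2.16 ± 0.176, and Mmp7 -4.64 ± 0.353 and -5.82 ± 0.47. Habp2 differed by -0.21 and Lyz2 by -0.03 between the group means. Relative to Lyz1 too, Mptx2, Itln1 and Mmp7 were lower in 9S/T-A SI.
In colon, 0 of 6 ratios to Lyz1 differed between genotypes. The Lyz2 ratio could show nothing in either tissue, because Lyz2 counts cannot be told apart from Lyz1 reads. The differences of the means ran from -0.38 (Habp2) to 0.09 (Itln1), with adjusted p from 0.883 to 0.929 in an exact two-sided permutation test over every split of 6 against 6 libraries, whose smallest p is 0.00216; 0 of 6 had an unadjusted p under 0.05. The colon differences of the members other than Lyz2 were thus not separable from that of Lyz1 at this spread. The SD of a group was 0.46 to 1.24 for these, and 0.087 and 0.16 for Lyz2.

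Per length, the order of the genes differed between tissues. The places of Lyz2 in both tissues, of Mptx2 in colon and of Mptx1 in SI rest on the uncertain counts described above. Those counts may hold reads of the partner gene. In WT SI the median level was 20362 RPKM for Lyz1 and 10179 for Itln1, followed by Lyz2 (1792), Mptx2 (1384), Mmp7 (1019), Mptx1 (120) and Habp2 (36.8). The ranges of Lyz2 and Mptx2 overlapped, as did those of Mptx2 and Mmp7, and the other neighbours did not. In 9S/T-A SI the order was Lyz1 (19035), Itln1 (4890), Lyz2 (1648), Mmp7 (404), Mptx1 (73.6), Mptx2 (51.6) and Habp2 (27.8), where Mptx2 overlapped both Mptx1 and Habp2. Mptx2 thus went from the fourth place to the sixth. In WT colon the medians were 17122 RPKM for Mptx1 and 542 for Mptx2, then 19 for Lyz1, 12.9 for Itln1, 5.88 for Mmp7, 1.62 for Lyz2 and 0.0377 for Habp2. Lyz1 and Itln1 overlapped there. The 9S/T-A colon kept that order, with 23958 RPKM for Mptx1, 31.9 for Lyz1 and 25 for Itln1 at the median, the last of which overlapped both Lyz1 and Mmp7.

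The genes whose pattern over the 24 libraries was most like that of a member differed from gene to gene. Likeness was the root mean square difference of log2(CPM + 1) profiles, each centred on its own mean, over 13683 genes, with the members themselves left out as candidates. Lyz1 and Lyz2 lay nearer to each other (0.227) than to any gene named here. The nearest to Lyz1 were the alpha-defensins Defa37 (0.407) and Defa36 (0.43), and to Lyz2 Defa34 (0.312) and Defa36 (0.34). Itln1 lay nearest to Defa26 (0.545) and the gene Gm15293 (0.644). Habp2 was nearest to Gata4 (0.266), a transcription factor of the proximal intestine, and Myrf (0.271), and Mmp7 to Gata4 (0.693) and Fam234b (0.724). Mptx1 was nearest to Hoxb13 (0.488), a transcription factor of the hindgut, and St6galnac6 (0.499). The genes nearest to Mptx2 lay farther off, Gcg (1.29), the preproglucagon gene, and Barx2 (1.39). Tissue makes up most of the variation in these profiles, and the members share libraries and scaling with the genes compared.

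The protein-coding neighbours of Mptx2 did not pass the test in SI. These were Cfap45, Vsig8 and Dusp23, whose starts lie 645 to 757 kb away on the lower side, and Ackr1, Aim2 and Cadm3, 56.0 to 89.9 kb away on the other. Their log2 fold changes between genotypes in SI ran from -1.22 (Cadm3, SE 0.431) to 0.99 (Ackr1, SE 0.381), with edgeR adjusted p from 0.182 to 0.787. Cadm3 and Ackr1 were near 1 CPM or below in both genotypes.

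Other products and regulators of Paneth cells gave a mixed picture. Of 7 further Paneth cell products tested in SI, 2 fell in 9S/T-A and 0 rose (median log2 fold change -0.41, against 0 over all genes). They were Ang4, a secreted ribonuclease with antimicrobial activity (-1.11, SE 0.188; edgeR adjusted p = 0.00607), and Pla2g2a, a secreted phospholipase (-0.60, SE 0.135; adjusted p = 0.0333). Of 30 alpha-defensin genes, 6 rose and 0 fell (median 0.06), among them Defa20 (1.22, SE 0.275; edgeR adjusted p = 0.0351). These genes are near copies of one another and their single counts are uncertain. Summed over the family, without TMM scaling, the counts did not rise. They were 45000 to 85400 per M in WT SI (median 62400) and 39100 to 66700 in 9S/T-A SI (median 48800), and the ranges overlapped. At an unadjusted p under 0.05 there were 15 alpha-defensins, and DESeq2 called 13. Of all genes tested in SI, 15.7% had such a p, 1.94% were called by edgeR, and DESeq2 called 779. Of 12 regulators and receptors of Paneth cells, 1 rose, Fgfr3 (0.71, SE 0.109; adjusted p = 0.00313), with 7 at an unadjusted p under 0.05 and 3 called by DESeq2. Of 4 niche ligands (Wnt3, Egf, Tgfa and Dll4) 0 were called by edgeR, with 2 at an unadjusted p under 0.05 and 1 called by DESeq2.
In colon, 1 of 6 further products rose in 9S/T-A, Clps, which encodes colipase (1.21, SE 0.119; edgeR adjusted p = 0.000329). Between tissues in WT, 6 of these 7 products fell in colon and 1 rose, Nupr1, which encodes a stress-induced nuclear protein (1.77, SE 0.189; adjusted p = 8.16e-07). All 30 alpha-defensins tested fell (median -9.74). Of the 4 niche ligands 3 fell, among them Wnt3 (-6.87, SE 0.215; edgeR adjusted p = 6.42e-13). The other, Egf, rose (2.15, SE 0.132; edgeR adjusted p = 1.34e-09). Of the 12 regulators and receptors, 3 rose and 5 fell.

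Relatives of the 7 genes were mostly at low levels. Of 19 other matrix metalloproteinases 7 were tested in SI and 7 in colon, of 6 other pentraxins 3 in each, of 4 proteases related to Habp2 2 and 1, and of 6 lysozyme-like genes 0 and 1. By edgeR 0 of these were called between genotypes, with 2 in SI and 4 in colon at an unadjusted p under 0.05, and DESeq2 called 2 in each tissue. Over all genes, 15.7% in SI and 8.81% in colon had such a p, and DESeq2 called 779 and 244. Markers of other cell types were checked in the same fits. Of the goblet markers in SI 0 of 8 were called by edgeR (2 at an unadjusted p under 0.05, 1 by DESeq2) and of the absorptive markers 0 of 6 (1 and 0). In the same tissue 1 of 6 enteroendocrine markers was called by edgeR and rose, Sct (1.14, SE 0.127; adjusted p = 0.000198). The median log2 fold change of these 6 was negative (-0.46), with 4 at an unadjusted p under 0.05 and 2 called by DESeq2. Of 4 tuft markers 1 fell, Pou2f3 (-1.18, SE 0.239; edgeR adjusted p = 0.0197), with a list median of -0.93 (3 and 2). Of 6 myeloid markers 1 fell, Cd14 (-0.54, SE 0.13; edgeR adjusted p = 0.0469), with a list median of -0.27 (2 and 2). In colon 1 of 8 goblet markers rose, Spink4 (0.68, SE 0.122; adjusted p = 0.0287), and 0 of the 21 other markers tested were called by edgeR, with 6 at an unadjusted p under 0.05, 5 of them enteroendocrine, and 2 called by DESeq2. Their part in the differences of the 7 genes was not tested. Pancreatic acinar genes summed to at most 2.72 counts per M in SI of WT mice and 19.2 with 9S/T-A.

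The windows before the transcription starts of the pentraxins are shown because these near-identical genes differed in tissue. They are 200 bases on the strand of the gene, from 250 to 51 bases before the RefSeq start (GRCm38.p6). Capitals mark bases that differ, or that have no counterpart, in an alignment of the full 300-base windows, which were identical at 251 of 277 aligned bases (90.6%).
Mptx1, chr1:174330268-174330467, plus strand: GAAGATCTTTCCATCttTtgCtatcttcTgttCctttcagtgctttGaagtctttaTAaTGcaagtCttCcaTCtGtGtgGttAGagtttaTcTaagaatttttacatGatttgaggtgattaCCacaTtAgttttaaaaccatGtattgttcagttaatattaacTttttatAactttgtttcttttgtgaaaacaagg
Mptx2, chr1:173277807-173278006, minus strand: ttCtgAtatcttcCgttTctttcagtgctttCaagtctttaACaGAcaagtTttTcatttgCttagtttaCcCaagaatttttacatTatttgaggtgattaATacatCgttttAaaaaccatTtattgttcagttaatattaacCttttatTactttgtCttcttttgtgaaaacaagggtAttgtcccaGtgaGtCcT
ATOH1 binds E-boxes, and 2 forms were searched on both strands of the 300-base windows of all 7 genes. CAGATG occurred once, in Mptx1, 180 bases before the start, and in 17.2% of 32851 windows. CAGCTG occurred in Lyz1 and Lyz2, 6 bases after the start in both, and in 16.3% of windows. The windows of Lyz1 and Lyz2 were identical at 249 of 298 aligned bases (83.6%). A match is a description of these letters and not a binding site.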

How the data were processed

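Total RNA from sorted cells was sequenced by the authors as stranded, single-end mRNA libraries. Per the labels and methods, reads were aligned to GRCm38.p3 with TopHat2 2.1.1, and raw counts per Ensembl gene were made with featureCounts (Subread 1.5.2) and deposited without normalization. Per the file headers, exons were counted by strand and at primary alignments alone, so a read with several positions counts for 1 gene. The 24 files held 45513 genes each, and GENCODE M21 (GRCm38) named 98.15% of them. Total counts were 36 to 65.8 M (prefix mega), a depth that limits counting error and not the spread between libraries. Among 60 same-group pairs of libraries 0 were identical.

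From the counts, edgeR 4.0.16 in R 4.3.3 was run over all genes (filterByExpr by group, TMM, quasi-likelihood test, two-sided) for genotype within tissue, tissue within genotype, and their product over 24 libraries. P-values were adjusted by Benjamini-Hochberg across every gene tested, with a threshold of 0.05, and standard errors come from the F statistic. Ratios to Lyz1 were compared by exact permutation and adjusted over the members compared. Alternatives were DESeq2 1.42.0, RLE factors, plain totals, no gene filter, the replicate number as a block, sex as a covariate, paralog pairs summed, all 24 libraries in 1 fit, leaving out each library and, added after the values were seen, subtraction of shared reads. The sex comparison was also added then.

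Same-numbered libraries deviated together between tissues, with correlations across genes of their deviations from 0.119 to 0.595 in WT and 0.131 to 0.674 in 9S/T-A. Together with the submitters' statement that both tissues were taken from each mouse, this was read as pairing for the tissue comparisons. The values printed for tissue and for the product nevertheless come from fits without pairs, unless the replicate block is named. With the replicate block, all 7 members still passed between tissues in both genotypes, at edgeR adjusted p of 4.3e-05 or less. The members, lists and tests were chosen with earlier results of these data known. Named genes are the members, up to 4 genes with the smallest p among the called genes of each list in a comparison, the 2 genes most like each member (mean log2 CPM of at least 1), and the 3 nearest tested protein-coding genes on each side of Mptx2. Sequences are from GENCODE M21 transcripts and RefSeq promoter windows, which held all 7 genes. Windows were aligned with a match of 1, a mismatch of -1, a gap of -2 and free ends.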

Additional observations from a re-analysis of the deposited data

Results flagged for a closer look

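In 3 of the 28 sets of 6 libraries (7 genes in 4 groups), a single library lay far from the others with a gap to the nearest other, as a ratio of the whole range, above Dixon's 95% critical value. Chance flags about 1 in 20 such sets. For Mptx2 in 9S/T-A SI, replicate 5 was the highest at 92.4 CPM, with the next at 47.4 (ratio 0.634). For Mptx2 in 9S/T-A colon, replicate 2 was the lowest at 373 CPM, with the next at 608 (ratio 0.641). For Habp2 in WT SI, replicate 4 was the lowest at 76.1 CPM, with the next at 115 (ratio 0.689). Without any single library, the SI genotype difference of Mptx2 ran from -4.97 to -4.49 and that of Habp2 from -0.45 to -0.27 (log2).

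The fitted genotype difference in colon minus that in SI was 5.06 for Mptx2, 2.1 for Mmp7 and 1.16 for Mptx1 (log2). These values were past the threshold but hold the SI difference that was known when the members were chosen. They are therefore a description and lend no support. The Mptx1 value was 0.60 once shared reads were subtracted from both pentraxins, and no longer past the threshold.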

How the results depend on the processing

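In SI, where the count is a description, the 4 genes past the threshold stayed 4 in each of 12 fits without a single library. In colon the count was 0 in each such fit, between tissues it was 7, and for the genotype by tissue product it ran from 1 to 4. It was 1 without replicate 6 of 9S/T-A SI or replicate 4 of WT colon, where Mptx2 remained. With all 24 libraries in 1 fit Itln1 missed the threshold in SI (-0.98). In colon the count was 1 with the replicate block and 1 with sex as a covariate, Mmp7 in both cases (0.77, edgeR adjusted p = 0.0153, and 0.80, adjusted p = 0.0433). With pairs summed, Mptx1 and Mptx2 gave -3.56 in SI, 3.57 in colon against SI in WT, where Mptx2 alone gave -1.31, and 4.01 for the product. Subtraction of shared reads took Mptx1 in SI to -0.14, which left 3 members past the threshold there. It took the Mptx2 tissue difference in 9S/T-A to 0.37. Ratios to Lyz1 in colon gave 0 calls under each alternative, and without single libraries the Itln1 ratio ran from -0.06 to 0.37 and the Mmp7 ratio from -0.26 to 0.33.

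Besides Mmp7 in colon and Itln1 for the product, the replicate block changed no call among the members. In the genotype comparisons numbers were read as pairs only if every same-numbered correlation was over 0.1, and 3 of 6 in SI and 5 of 6 in colon were. In colon the 5 ran from 0.332 to 0.876 and that of replicate 6 was -0.0494, and 4 of 6 libraries (1 of 6 in SI) correlated best with their own number, a hint from the data and not from the design. Same-numbered libraries also share sex. Over all genes, the count in SI was 315 in the edgeR fit, 779 with DESeq2, 477 with the block, 520 with all libraries and 188 to 550 without single libraries. In colon it was 54, against 244 with DESeq2, 385 with the block, 90 without the filter, 89 with sex, 103 with all libraries and 30 to 72 without single libraries. For the product it was 74, against 253 with DESeq2 and 342 with the block, and 50 to 112 without single libraries. Plain totals moved the median of all genes by -0.11 in SI and to 0.74 and 0.85 between tissues in WT and 9S/T-A, and the share of calls that were higher from 53.3% to 29.1% in SI, from 52.1% to 86.5% in WT, from 54% to 88.4% in 9S/T-A and from 70.3% to 89% for the product. Under plain totals Mptx2 in WT was -0.61 in colon against SI (edgeR adjusted p = 0.0102), and the direction of no member turned. The causes were not tested. The difference of Mmp7 between sexes in colon was 1.13 to 1.35 without single libraries. Habp2 in colon rests on 4 to 15 counts per library, which limits what its genotype difference can show.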
